A study of Mus musculus with 3 samples.

Results

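The 171 genes described here are the mouse zinc finger genes numbered Zfp600 to Zfp999. They were chosen by symbol alone, as every gene with a symbol in that range and at least 1 protein_coding transcript in the deposited transcript tables. They are 171 of 21951 protein-coding and 55450 annotated genes and hold 637 annotated transcripts. Another 220 protein-coding genes carry a numbered Zfp symbol outside the range. The symbol range is a naming range and says nothing about expression. All levels come from total RNA of the chromatin fraction of bone marrow-derived macrophages, primary cells of C57BL/6J mice, sequenced after depletion of ribosomal RNA. There was 1 group of 3 libraries. Every culture had received 100 ng/ml Lipid A, the membrane anchor of endotoxin and a TLR4 agonist, for 12 h, had then been kept without it for 12 h, and had been given 100 ng/ml again for 20 min. The labels name 3 biological replicates and give all of them 1 donor entry, so the spread between them may in part be technical. Cultures without either exposure were not analysed here, so no value below is an effect of Lipid A.

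Most genes of this range encode C2H2 zinc finger proteins, in which repeated fingers, each folded around a zinc ion held by cysteines and histidines, read bases of DNA one after the other. Many also carry a KRAB (Krüppel-associated box) domain near the amino terminus. KRAB recruits the scaffold protein TRIM28, which brings the histone methyltransferase SETDB1 and other silencing factors to the bound site, above all to copies of transposable elements. KRAB zinc finger genes multiply by tandem duplication, so mouse chromosomes hold clusters of young, closely similar copies. Other genes of the range have no KRAB domain and act as cofactors, as RNA-binding proteins or in ribosome assembly.

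Shared sequence limits the levels of part of the members, so sequence is shown first. The KRAB signature was found in 100 of the 171 members (58.5%) and in 93 of the 220 other Zfp genes (42.3%), by a search of the translated coding sequence of GENCODE M21. The members had a median of 11 fingers, against 10 in the other Zfp genes. Zfp619, on chromosome 7 (39517766 to 39540420, mm10), had 33 fingers, the most of all members, and Zfp646 had 27. In Zfp619, 29 of the 32 steps from one finger to the next were exactly 84 bases, and 3 neighbouring repeats from 1 exon are shown 5′ to 3′ on the plus strand of mm10, with the codons of the zinc-binding cysteines and histidines in capitals. They lie at chr7:39535205-39535288, chr7:39535289-39535372 and chr7:39535373-39535456.
Zfp619 finger 1: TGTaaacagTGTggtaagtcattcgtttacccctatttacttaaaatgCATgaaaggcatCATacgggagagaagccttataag
Zfp619 finger 2: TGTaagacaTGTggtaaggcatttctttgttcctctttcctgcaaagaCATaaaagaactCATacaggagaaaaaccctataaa
Zfp619 finger 3: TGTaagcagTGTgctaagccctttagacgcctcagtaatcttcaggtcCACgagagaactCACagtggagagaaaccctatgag

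Between genes the similarity can be complete. The members at chromosome 4 (145510759 to 147848366, mm10) form the largest cluster, with 17 genes, all 17 with a KRAB signature. The following 90 bases code for the start of the KRAB A box and are given 5′ to 3′ on the coding strand, with bases that differ from Zfp991 in capitals. They are shown because estimated levels ran from 0 to over 50 TPM between cluster genes in which this stretch is nearly the same. Over whole transcripts the similarity varied more. Of the 31-base words of Zfp991, Zfp990 and Zfp979, 88.0, 48.8 and 31.4% also occur in transcripts of other genes. The stretch of Zfp991 (chr4:147176756-147176845) was identical in Zfp992 (chr4:146464413-146464502) and Zfp993 (chr4:146655809-146655898), and that of Zfp600 (chr4:146193316-146193405) was identical in Zfp980 (chr4:145699253-145699342). Those of Zfp990, Zfp989 and Zfp985 lie at chr4:145534825-145534914, chr4:146986643-146986732 and chr4:147581251-147581340, and that of Zfp979 lies at chr4:147615308-147615397 on the minus strand, the others being on the plus strand of mm10.
Zfp991: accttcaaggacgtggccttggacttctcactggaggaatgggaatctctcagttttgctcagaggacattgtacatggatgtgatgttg
Zfp990: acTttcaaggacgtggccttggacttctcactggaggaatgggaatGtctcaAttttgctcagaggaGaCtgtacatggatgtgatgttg
Zfp989: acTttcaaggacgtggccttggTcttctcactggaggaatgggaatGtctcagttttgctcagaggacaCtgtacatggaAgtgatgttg
Zfp985: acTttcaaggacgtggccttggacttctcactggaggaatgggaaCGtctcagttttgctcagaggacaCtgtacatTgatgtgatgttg
Zfp600: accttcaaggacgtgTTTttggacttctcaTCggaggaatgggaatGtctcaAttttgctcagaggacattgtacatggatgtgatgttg
Zfp979: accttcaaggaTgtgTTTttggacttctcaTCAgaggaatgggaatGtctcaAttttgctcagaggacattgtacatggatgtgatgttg
Zfp990, Zfp989 and Zfp985 each differed from Zfp991 at 5 of the 90 bases, Zfp600 at 7 and Zfp979 at 9. Over all 136 pairs of the 17 cluster genes the median identity was 91.1%, and 9 pairs were identical. Over the 3403 pairs of the 83 KRAB-type members elsewhere it was 66.7%, with 23 identical pairs.

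A similar family lies on chromosome 2. The KRAB-coding stretch of Zfp966 (chr2:175923017-175923106, minus strand) was identical in Zfp965, Zfp967, Zfp968, Zfp969 and Zfp970, and that of Zfp971 (chr2:178031264-178031353, plus strand) differed from it at 1 base, in a capital here.
Zfp966: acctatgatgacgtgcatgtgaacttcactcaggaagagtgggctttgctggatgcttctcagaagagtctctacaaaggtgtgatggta
Zfp971: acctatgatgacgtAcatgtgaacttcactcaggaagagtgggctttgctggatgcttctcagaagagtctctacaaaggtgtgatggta
Sharing was measured over whole transcripts as the percentage of a gene's 31-base words (31-mers) that also occur in transcripts of another gene. The median member shared 3.9%, against 1.0% for the other Zfp genes, and 92 members shared less than 5%. More than 50% was shared by 25 members, against 6 of the 220 other Zfp genes. The medians were 64.4% for the 20 members on chromosome 4 and 69.5% for the 15 on chromosome 2, and 1.9% for the 35 on chromosome 7, the chromosome with most members. For genes with a high share, the deposited counts divide reads that suit several genes, so their single values are uncertain and are read here with their neighbours.

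The depth behind the levels was 13953780, 24222661 and 16571228 expected counts in replicates 1, 2 and 3. The members together took 56057, 94998 and 64966 counts, which was 0.412, 0.394 and 0.394% of the counts on annotated genes. Starting RNA was 1 µg, 250 ng and 500 ng for replicates 1, 2 and 3, so effects of starting RNA and of replicate cannot be told apart. The macrophage label held in the gene tables: all 9 macrophage markers, Adgre1 (F4/80) and Csf1r among them, had at least 1 TPM (transcript abundance scaled for length and depth) in every library. Their summed level was 884 to 1099 TPM per library. The summed level was 0.24 to 0.38 TPM for 5 B cell markers, 0.71 to 1.35 TPM for 6 neutrophil markers and 0.06 to 0.14 TPM for 4 erythroid markers. Of 5 T cell markers only Cd4 reached 1 TPM, with a summed level of 6.8 to 11.6 TPM, and Cd3e was at 0 in 2 of the 3 libraries. In the second quantification, another deposited set of transcript tables for these libraries, Cd8a (2.48 TPM) and, of the neutrophil markers, Mpo (2.11 TPM) and Cxcr2 (4.42 TPM) also reached 1 TPM in every library. Their part in the members' levels was not tested.

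Of the 171 members, 118 (69.0%) had at least 1 TPM in every library, against 158 of 220 other Zfp genes (71.8%) and 45.3% of all protein-coding genes. At least 5 TPM in every library was reached by 61 members (35.7%), against 31% of protein-coding genes. At least 10 TPM in every library was reached by 38 members (22.2%), 23.6% of the other Zfp genes and 21.9% of all protein-coding genes. The median member had a mean of 3.86 TPM, the median other Zfp gene 3.56 TPM and the median protein-coding gene 0.69 TPM. On the log2(TPM + 1) scale the median level of the members was 2.22, 2.02 and 2.39 in replicates 1, 2 and 3. It lay above that of all protein-coding genes by 1.46, 1.38 and 1.62 in the same libraries (mean 1.48 ± 0.12, SD, n = 3), with the same direction in all 3. When genes averaging under 1 TPM were left out, the order turned round, with a difference of -0.58. The members thus reached 1 TPM more often than protein-coding genes at large, and those that reached it had a lower median. Against the other Zfp genes the difference was -0.02, -0.09 and 0.10 log2 units in the 3 libraries, smaller than its own spread (mean -0.003 ± 0.098, SD, n = 3). With 1 group there is no test of these differences, and genes are not replicates.

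**Figure D1:**
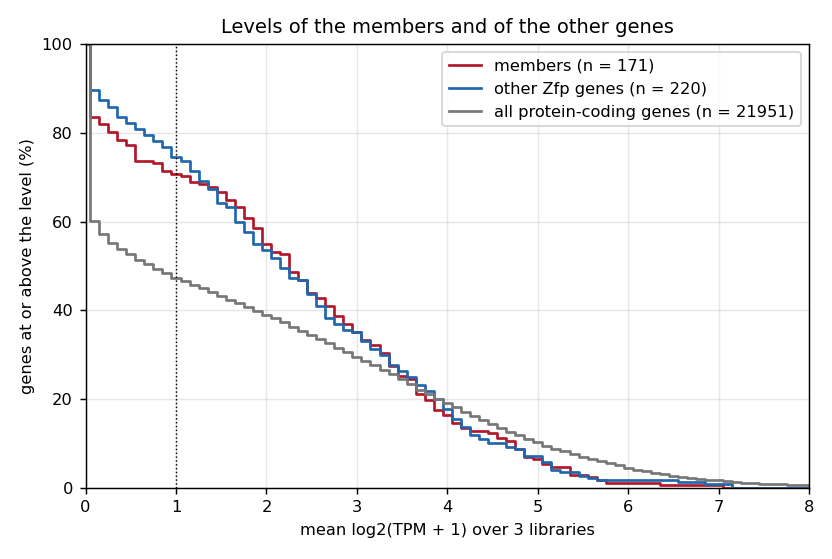
Share of genes (%) at or above each mean level, on the log2(TPM + 1) scale over 3 libraries, for the 171 members, the 220 other Zfp genes and all 21951 protein-coding genes. The curve of the members runs with that of the other Zfp genes, above all protein-coding genes at low levels and below them at high levels, and the dotted line marks 1 TPM.

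A few genes carried much of the total. The sum over all members was 1712, 1288 and 1641 TPM in replicates 1, 2 and 3, and the 12 highest members held 39.9% of the mean sum of 1547 TPM. Zfp638, on chromosome 6 (83867109 to 83989550, mm10), had 168, 103 and 130 TPM (134 ± 32, SD, n = 3), or 8.65% of the sum. Its protein, also known as NP220, is a nuclear RNA- and DNA-binding protein with 2 fingers in its translated sequence and takes part in silencing of retroviral DNA that has not integrated. Replicate 1 was highest and replicate 2 lowest, and in the first quantification each value was above that of every other member in the same library. In the second, Zfp638 had 182, 110 and 147 TPM and stood below Zfp991, whose value there is given with the chromosome 4 cluster. Zfp950 followed with 101, 57.0 and 93.8 TPM (83.9 ± 23.6), Zfp991 with 62.6, 46.9 and 53.6 TPM (54.4 ± 7.9) and Zfp644 with 52.6, 40.9 and 52.9 TPM (48.8 ± 6.8). Zfp644 encodes a partner of the histone methyltransferases G9a and GLP. The ranges of Zfp950, Zfp991 and Zfp644 each overlapped the next. Within each library of the first quantification, Zfp950 was above Zfp991 and Zfp991 above Zfp644.

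Zfp992 had 46.8 ± 7.7 TPM, Zfp800 41.7 ± 21.1 TPM, Zfp655 39.5 ± 6.8 TPM and Zfp871 38.7 ± 1.7 TPM. Zfp655 is also called Vik, after its binding to the signalling protein VAV1. The list of 12 closed with Zfp865 at 34.2 ± 3.4 TPM, Zfp971 at 32.1 ± 2.5 TPM, Zfp710 at 31.9 ± 4.2 TPM and Zfp787 at 30.7 ± 5.2 TPM. From Zfp992 to Zfp787, the 3 values of each gene overlapped in range with those of the next. Zfp871 was above Zfp865 in each library. The other neighbouring pairs did not keep the same order in all 3 libraries. Of the 12, the KRAB signature was found in Zfp991, Zfp992 and Zfp971, for which 88.0, 48.3 and 69.5% of 31-mers occur in other genes, so their single levels are uncertain.

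**Figure D2:**
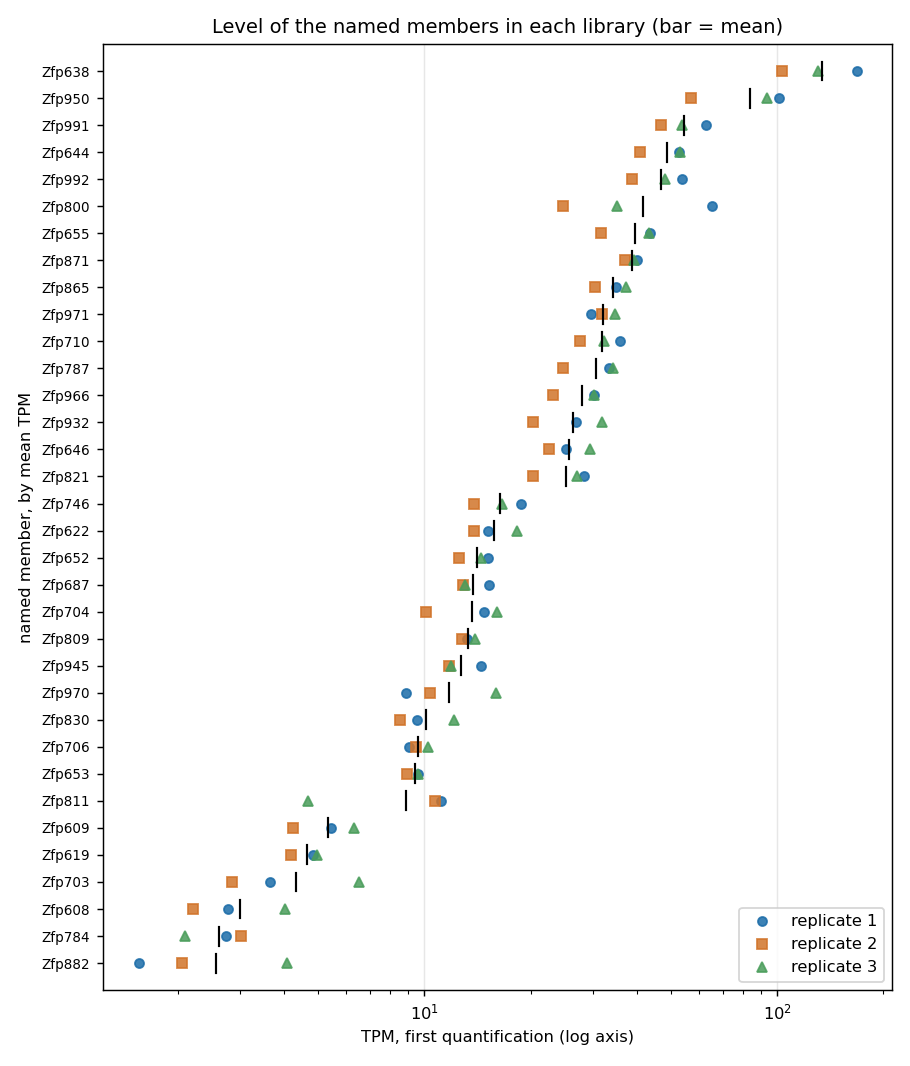
Level in TPM (log axis) of each named member with a mean of at least 1 TPM, with 1 point per library and a bar at the mean of the 3 libraries. Zfp638 stands at 103 to 168 TPM at the top, most members are lowest in replicate 2 on this scale, Zfp800 is highest in replicate 1 and Zfp811 is lowest in replicate 3.

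Members with described roles in silencing of transposable elements ran from moderate levels to none. Zfp809, whose protein recognises the primer binding site of murine leukaemia viruses, had 13.2, 12.8 and 13.9 TPM (13.3 ± 0.6). Zfp932, which binds endogenous retroviruses in mouse embryonic stem cells, had 26.8, 20.3 and 31.9 TPM (26.3 ± 5.8). All libraries of Zfp809 lay below those of Zfp932 in this quantification, but the order depends on it. In the second quantification, described below, Zfp809 had 48.3, 33.5 and 40.9 TPM and Zfp932 had 35.3, 29.8 and 38.5 TPM, so Zfp809 was higher in each library. For Zfp932 48.3% of 31-mers occur in other genes. Zfp708, which binds RMER19B elements in embryonic stem cells, averaged 1.26 TPM in the second quantification, against 0.22, 0 and 0.39 TPM in the first, and 95.6% of its 31-mers occur in other genes. Zfp819, described in pluripotent cells, was listed at 0 in replicates 1 and 2 and had 1 count in replicate 3, under the 3 counts that a count of 0 allows.

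The members named next encode partners of chromatin cofactors or repressors and ranged from 0 to 18.8 TPM in the first quantification. Zfp644, another such gene given above, was higher. Zfp687, which binds chromatin in a complex with ZMYND8 and ZNF592 in human cells and is mutated in a human bone disease with overactive osteoclasts, had 15.3, 12.9 and 13.0 TPM (13.7 ± 1.3). Zfp652, a partner of the co-repressor ETO2 in human cells, had 15.2, 12.6 and 14.4 TPM (14.1 ± 1.3). The values of these genes overlapped. Zfp746 (PARIS), a repressor of the gene for PGC-1α that the ubiquitin ligase parkin marks for destruction, had 18.8, 13.9 and 16.6 TPM (16.4 ± 2.5). Zfp706, which represses Klf4 in mouse embryonic stem cells, had 9.03, 9.46 and 10.2 TPM (9.57 ± 0.60). Zfp618, a partner of UHRF2, and the X-linked Zfp711, a partner of the demethylase PHF8 in human cells, were listed at 0 in every library of the first quantification. Zfp827, which brings the NuRD complex to telomeres in human cells, averaged 2.28 TPM in the second quantification, against 0.04, 0.03 and 0.07 TPM, on 3, 6 and 5 counts, in the first.

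The paralogues Zfp608 and Zfp609 and the pair Zfp703 and Zfp704 showed unequal levels. Zfp609, a cofactor of the Integrator complex and the cohesin loader NIPBL in neural progenitors, had 5.44, 4.24 and 6.33 TPM (5.34 ± 1.05), and Zfp608 had 2.77, 2.21 and 4.03 TPM (3.00 ± 0.93). Zfp609 was higher in each of the 3 libraries. Zfp704 had 14.7, 10.1 and 16.1 TPM (13.6 ± 3.1), and Zfp703, a transcriptional cofactor studied as a human breast cancer gene, had 3.64, 2.84 and 6.53 TPM (4.34 ± 1.94). Zfp704 was higher in each library without overlap, whereas in the second quantification the ranges overlapped, with 13.9, 11.3 and 16.8 TPM for Zfp704 and 9.20, 7.08 and 11.7 TPM for Zfp703. Zfp622, the homologue of yeast Rei1, which acts in maturation of the large ribosomal subunit, had 15.1, 13.9 and 18.3 TPM (15.8 ± 2.3). Zfp830, needed in early mouse embryos, had 9.53, 8.55 and 12.2 TPM (10.1 ± 1.9).

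Members with a KRAB signature had a median of 3.41 TPM (n = 100) and those without one 5.02 TPM (n = 71). The median difference on the log2(TPM + 1) scale was -0.58, -0.46 and -0.37 in replicates 1, 2 and 3 (mean -0.47 ± 0.10, SD, n = 3). The median estimated level of KRAB-type members was thus lower in every library. At least 1 TPM in every library was reached by 67 of 100 KRAB-type members and by 51 of the 71 others (71.8%). Members within 500 kb of another Zfp gene numbered 130 (76.0%), of which 93 had a KRAB signature, so the features are largely shared. Median levels were 3.23 TPM for the 93 clustered KRAB-type members, 3.86 TPM for 37 clustered members without KRAB, 4.66 TPM for 7 unclustered KRAB-type members and 5.62 TPM for 34 members with neither feature. Clustered members had a median of 3.66 TPM and the 41 unclustered members 5.34 TPM, a difference of -0.55, -0.47 and -0.53 log2 units per library. Both differences depended on the definition, at -0.24 with a stricter KRAB signature and -0.048 with clusters drawn at 100 kb. The stricter signature was found in 97 members, against 100, so few genes moved this median difference. The number of fingers showed no relation to level across the 171 members (Spearman's rho 0.03, a description across genes, which share libraries and reads).

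RNA was found for all genes on a list of silencing factors and other chromatin regulators. The list was chosen with earlier results of these data known, and whether KRAB proteins act through each gene was not tested. Each of these 29 genes had at least 1 TPM in every library, against 45.3% of all protein-coding genes. Their median was 40.0 TPM. The scaffold gene Trim28 had 33.4, 39.0 and 34.1 TPM (35.5 ± 3.0), and the methyltransferase gene Setdb1 had 29.1, 26.8 and 31.6 TPM (29.2 ± 2.4). The SETDB1 cofactor gene Atf7ip had 94.5 ± 20.0 TPM. The lowest of the list was Uhrf1, which recruits maintenance DNA methylation in dividing cells, at 3.13 ± 1.01 TPM. The highest KRAB-type member, Zfp991, was above Trim28 in each library on this per-length scale.

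Between the libraries, most members varied little. Of the 171 members, 118 had a mean of at least 50 counts, and the SD of their log2 CPM (library-size-scaled counts) over the 3 libraries had a median of 0.165, against 0.169 for 156 other Zfp genes and 0.189 for 9533 protein-coding genes. Without replicate 2 the difference from protein-coding genes turned round, to 0.008. The narrowest were Zfp652 (SD 0.025), Zfp787 (0.027), Zfp966 (0.027) and Zfp746 (0.032). For Zfp966 93.9% of 31-mers occur in other genes, so its counts and their spread are uncertain. Zfp652 had 1622, 2733 and 1823 counts, and its highest library was 1.03-fold its lowest after scaling.

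The widest was Zfp811, a KRAB-type gene on chromosome 17 (32795676 to 32809931, mm10), with 401, 792 and 198 counts. It had 11.2, 10.7 and 4.67 TPM, and replicate 3 stood below the other libraries, 2.73-fold under the highest on the CPM scale (SD of log2 CPM 0.779). The second quantification gave the same order of libraries, with 14.2, 11.5 and 6.13 TPM. The neighbours shown did not share the low value, since Zfp871 had 40.1, 36.9 and 39.2 TPM and Zfp952 had 8.44, 5.88 and 7.17 TPM. Both detected transcripts of Zfp811 were lowest in replicate 3, at 3.89 TPM for Zfp811-202 and 0.78 TPM for Zfp811-201. Zfp811 has no annotated gene on its opposite strand, and 2.0% of its 31-mers are shared.

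Zfp800, on chromosome 6 (28239927 to 28398005, mm10), had 2030, 1759 and 1348 counts and 65.4, 24.6 and 35.2 TPM. Replicate 1 was highest and replicate 2 lowest, with a 1.95-fold range on the CPM scale (SD 0.516). The 3 main transcripts had the same order of libraries, with Zfp800-203 at 29.1, 12.2 and 14.4 TPM, Zfp800-202 at 21.5, 8.56 and 12.9 TPM and Zfp800-205 at 13.2, 3.21 and 6.72 TPM. Zfp882 had 40, 136 and 73 counts (SD 0.497) and Zfp970 had 108, 282 and 233 counts (SD 0.455). In both, replicate 1 was lowest, and for Zfp970 67.9% of 31-mers are shared with other genes.

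**Figure D3:**
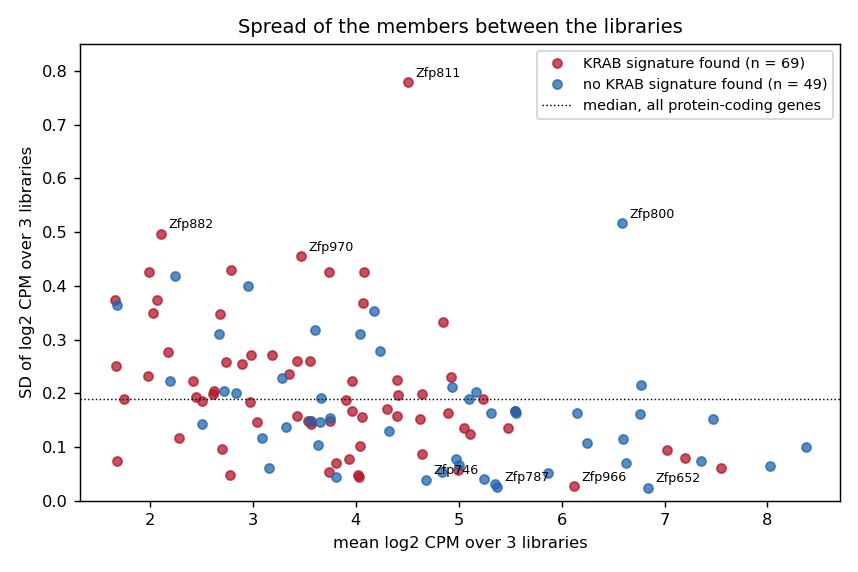
SD of log2 CPM over the 3 libraries against mean log2 CPM for the 118 members with a mean of at least 50 counts, by KRAB signature. Zfp811 at 0.779 and Zfp800 at 0.516 stand above the other members of like level, and the dotted line is the median of all protein-coding genes, 0.189.

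Which library was highest depended on the scale. On the CPM scale, 30 of the 118 members (25.4%) were highest in replicate 1, against 32.1% of protein-coding genes, 47 (39.8%) in replicate 2, against 39.6%, and 41 (34.7%) in replicate 3, against 28.2%. Of the other Zfp genes 37.2% were highest in replicate 3. Replicate 1 was most often the lowest, for 56 members (47.5%), against 41.2% of protein-coding genes and 49.4% of other Zfp genes. Replicate 2 was lowest for 41 members (34.7%), against 33.9% of protein-coding genes, and replicate 3 for 21 (17.8%), against 24.9%. On the TPM scale, 52 members (44.1%) were highest in replicate 1, against 51.4%, and 59 in replicate 3, against 39.1%. On the same scale 92 (78.0%) were lowest in replicate 2, against 70.7%, so a low TPM in replicate 2 was common to most genes.

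The deposited data hold a second transcript quantification of the same libraries, which was summed per gene. It gave the members a median of 5.41 TPM, against 3.86 TPM in the first. At least 1 TPM in every library was reached by 136 members (79.5%, background 56.4%) in the second, against 118 in the first. Over the 143 members with a mean of at least 1 TPM in either, the median difference (second minus first) was 0.34 log2 units, against 0.52 for 13057 protein-coding genes. The second was higher by more than 1 log2 unit in 27 of these members (18.9%), against 28.1% of protein-coding genes, and lower by that much in 1, Zfp784 (0.699%), against 0.0919%. Ranks were similar over all 171 members (Spearman's rho 0.85), with 0.92 for the 92 members that share less than 5% of their 31-mers and 0.82 for the 25 that share over 50%.

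**Figure D4:**
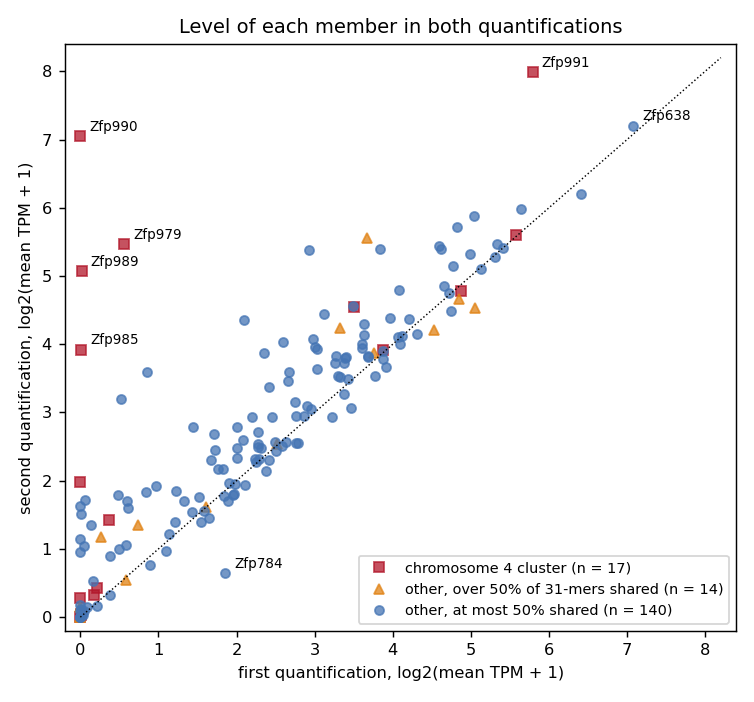
Mean level over 3 libraries of each of the 171 members in the second quantification (vertical) and the first (horizontal), both as log2(mean TPM + 1), by cluster and by share of 31-mers found in other genes. Zfp990, Zfp989, Zfp979 and Zfp985 of the chromosome 4 cluster lie near 0 in the first and at 14.1 to 131 TPM in the second, and Zfp784 lies below the diagonal.

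The largest rises were all in the chromosome 4 cluster. Zfp990 (145510759 to 145539188, mm10) had 161, 111 and 121 TPM (131 ± 26) in the second quantification, against 0 in every library of the first, where the authors' deposited upper bounds were 3.82, 2.24 and 3.95 TPM. Zfp989 had 32.2, 33.9 and 31.9 TPM in the second, against 0, 0.04 and 0 TPM in the first. Zfp979 had 58.9, 31.2 and 39.9 TPM in the second, against 0.27, 0.45 and 0.71 TPM in the first. The values of the quantifications did not overlap for any of these genes. Zfp991, the highest member of the cluster, had 308, 212 and 236 TPM in the second, against 62.6, 46.9 and 53.6 TPM in the first.

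For Zfp990, Zfp989 and Zfp991 most of the second value stood on very short annotated transcripts. Zfp990-203, 262 bases long, held 161, 111 and 121 TPM on 275, 434 and 269 estimated counts, and 86.6% of its 31-mers also occur in other genes, 84.9% in Zfp987 alone. Zfp991-202, 234 bases long, held 263, 174 and 195 TPM on 359, 542 and 350 estimated counts, and 31.4% of its 31-mers occur in other genes. Zfp989-201, 309 bases long, held 32.2, 33.9 and 31.9 TPM on 75, 182 and 95.8 estimated counts. All 3 were listed at 0 in the first transcript table. The libraries are labelled with a size range of 250-400, and TPM divides counts by an effective length, which is small for such transcripts. Transcripts shorter than 400 bases held 20.1% of the members' TPM but 1.14% of their estimated counts in the second table, against 10.5% of TPM and 0.768% of counts for all protein-coding genes. The members' share of TPM stood largely on Zfp991-202 and Zfp990-203, with means of 211 and 131 TPM. The next of these short transcripts, Zfp710-205, had 32.9 TPM, so the share does not describe the members at large.

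Summed over the 17 genes of the cluster, the second quantification gave 705, 511 and 552 TPM (589 ± 102), against 180, 129 and 155 TPM (155 ± 26) in the first. Without transcripts under 400 bases, a limit chosen after the values were seen, the sum in the second was 241, 180 and 204 TPM (208.5 ± 30.5), still above the first in each library. Zfp990 then had 0.21 TPM and Zfp989 0.03 TPM, near their values in the first, whereas Zfp979 kept 43.3 TPM and Zfp985 14.1 TPM in the second, against 0.48 and 0.007 TPM in the first. In the first quantification 5 cluster genes had at least 1 TPM in every library, namely Zfp991, Zfp992, Zfp993, Zfp984 and Zfp933, and in the second 10 did, or 8 over transcripts of at least 400 bases. The genes with the identical KRAB-coding stretch shown above, Zfp991, Zfp992 and Zfp993, were the 3 highest of the cluster in the first quantification, at 54.4, 46.8 and 28.4 TPM. Their values in the second without short transcripts were 41.6, 47.4 and 22.8 TPM.

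**Figure D5:**
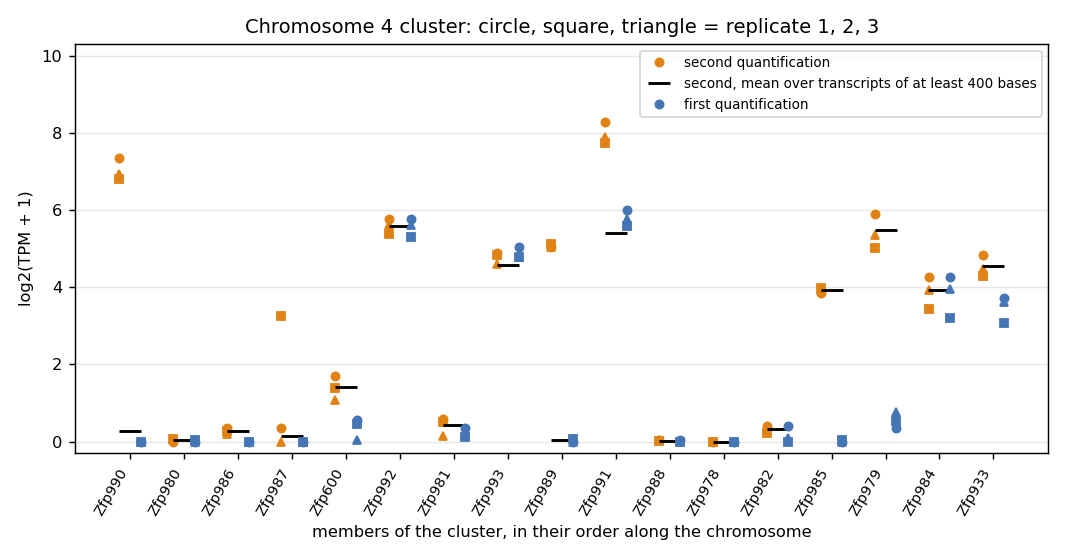
Level, as log2(TPM + 1), of the 17 members of the chromosome 4 cluster in each library in the second and the first quantification, with a bar for the mean of the second over transcripts of at least 400 bases. Zfp990, Zfp989 and Zfp991 drop to the bar when short transcripts are left out, and Zfp979 and Zfp985 do not.

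On chromosome 2 (175372436 to 175931100, mm10) the quantifications gave nearly the same sum for a family whose single genes share most of their sequence. Zfp967 and Zfp969 share 100% of their 31-mers with other genes and were listed at 0 in both quantifications, and the deposited upper bounds of Zfp969 in the first were 5.51, 3.18 and 5.45 TPM. Zfp968, which holds all 31-mers of Zfp969, had 14.6, 9.43 and 13.4 TPM, and Zfp966 had 30.3, 23.2 and 30.3 TPM. A level of 0 for Zfp967 or Zfp969 therefore does not show that these genes are silent. Zfp965, with 97.9% shared, had 6.14, 3.25 and 4.79 TPM, with deposited bounds of 2.33 to 15.5 TPM in replicate 1. The 4 genes from Zfp968 to Zfp966 summed to 48.0, 35.9 and 44.4 TPM in the second quantification, against 51.0, 35.8 and 48.5 TPM in the first. In the next cluster (177464733 to 178078476), which holds Zfp970, Zfp972, Zfp971 and Zfp931, they differed, with 97.9, 103 and 107 TPM in the second, against 69.4, 72.5 and 73.0 TPM in the first. The difference stood mainly on Zfp970, with 44.4, 41.8 and 51.8 TPM in the second, against 8.87, 10.4 and 15.9 TPM in the first.

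The largest falls in the second quantification were in Zfp784, Zfp971 and Zfp830. Zfp784 had 0.69, 0.50 and 0.49 TPM in the second, against 2.73, 3.02 and 2.10 TPM in the first, and the values did not overlap. Of its 31-mers 94.8% lie on the opposite strand of exons of other genes, Zfp865 and Ccdc106 among them. The strand of the libraries is not given in the sources used here, so reads of Zfp784 and of its antisense partners cannot be told apart. Zfp865 had 33.6, 30.2 and 36.2 TPM in the second, against 34.8, 30.5 and 37.2 TPM in the first. For 9 members over 10% of 31-mers lie on the opposite strand of other exons, among them Zfp652, Zfp703 and Zfp704, whose levels above carry the same limit. Zfp971 had 22.1 ± 0.7 TPM in the second, against 32.1 ± 2.5 TPM in the first, and Zfp830 had 7.35 TPM against 10.1 TPM.

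In the first quantification 16 members (9.36%) were listed at 0 in every library, against 30.3% of protein-coding genes. The first 5 by number were Zfp616, Zfp618, Zfp641, Zfp648 and Zfp683. In the second quantification 7 members (4.09%, background 17.5%) were listed at 0. Among the 50 members with a mean under 1 TPM in the first, 18 (36.0%) had at least 1 TPM in every library of the second, against 18.6% of protein-coding genes and 29.1% of other Zfp genes with so low a mean.

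Chromatin RNA holds unfinished transcripts, and the annotation includes retained_intron transcript models. Whether the TPM on these models comes from unfinished transcripts was not tested. Of 121 members with a mean of at least 1 TPM, 44 (36.4%) have an annotated retained_intron transcript, against 49.7% of other Zfp genes and 62.4% of protein-coding genes. In those 44, such transcripts held a median of 37.5, 37.6 and 34.9% of the gene's TPM in replicates 1, 2 and 3, with 37.6% for the mean levels, against 35.7% in the other Zfp genes and 47.1% in protein-coding genes. They held over 50% in 12 of the 44 members (27.3%), against 45.6% of protein-coding genes with such a transcript. The most abundant transcript was not a protein_coding one in 23 members (19.0%), against 36.5% of protein-coding genes. In the second quantification it was 50 of 141 members (35.5%), against 47.1% of protein-coding genes. These shares depend on which models are annotated.

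The highest shares among members of at least 5 TPM were in Zfp945, Zfp622, Zfp821 and Zfp653. Retained_intron transcripts held 87.3, 81.6 and 82.6% of the TPM of Zfp945 in replicates 1, 2 and 3, mostly in Zfp945-203. They held 71.4, 80.5 and 72.2% in Zfp622, 71.5, 75.04 and 75.06% in Zfp821 and 76.7, 69.9 and 71.7% in Zfp653. The second quantification gave 84.6, 63.6, 64.9 and 79.4% for the same genes. In Zfp638 the share was 55.8, 49.9 and 52.8%. In Zfp809 it was 61.3% in the second quantification, against 22.1% in the first, and in the second Zfp809-202, of 597 bases, held all of it.

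The promoter table of RefSeq (GRCm38.p6, 250 bases before to 50 after each start) held 173 promoters of 144 members. They had a median of 11 CG pairs in 300 bases, against 7 in all 32851 promoters. The letters TATAAA occurred on either strand in 9 of the 173 (5.20%), against 13.6% of all promoters. The consensus NF-kappa B decamer, on either strand, was found in 3 (1.73%), against 4.51%. The 3 were promoters of Zfp617, Zfp850 and Zfp974, whose levels were 9.44, 0.863 and 15.9 TPM. A match is a description of letters and says nothing of factor binding.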

How the data were processed

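Total RNA of the chromatin fraction of macrophages was measured in 3 libraries of 1 group. Per the file headers, the authors' gene tables and first transcript tables hold expected counts and TPM with lower and upper bounds of TPM, in the column layout of RSEM, and are called the first quantification. The second transcript tables deposited by the authors hold estimated counts and TPM in the column layout of kallisto, and were summed per gene. Genome mm10 and annotation M21 are given per the labels and the submitters' processing notes. The sources used here do not give the aligner, the programs, their versions or the library strand. Gene positions, biotypes, coding sequences and 31-mers came from GENCODE M21, in which 86 genes of the tables, on scaffolds, were not used. Entries without an annotated gene took 2.52, 0.555 and 0.398% of counts in replicates 1, 2 and 3 and stayed out of library sizes.

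The spread between libraries was the SD of log2 CPM, computed by edgeR 4.0.16 on rounded expected counts (TMM factors 1.03, 0.984 and 0.985, prior count 2), for genes averaging 50 counts or more. DESeq2 1.42.0 supplied alternative size factors. Levels were compared as log2(TPM + 1), which understates differences of low genes. At 3 counts, the most that a count of 0 allows, a gene has 0.221, 0.125 and 0.182 CPM in replicates 1, 2 and 3, for counting error only. Fingers were counted as C, 2 to 4 residues, C, 12 residues, H, 3 to 5 residues, H, in the longest annotated coding sequence of each gene, and KRAB by a short signature in the same sequence, since the RefSeq protein table planned for this was not used here. A missing match does not show that a domain is absent. Counters and the SD were tested on simulated data. Software was Python 3.11.15, pandas 2.3.3, numpy 2.4.6, matplotlib 3.10.9 and R 4.3.3.

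With 1 group no test between groups was possible, and no p-value is given. The members and all lists were chosen with earlier results of these data known. The genes named are the 12 members with the highest mean TPM, the 4 with the largest and the 4 with the smallest SD, the 3 with the largest rise and the 3 with the largest fall in the second quantification, the 4 with the largest retained-intron share at 5 TPM or more, the 2 with most fingers, and members with known roles. Other members of the chromosome 4 and chromosome 2 clusters, neighbours of Zfp811, and genes with a promoter match were named after their values were seen. Alternatives were each library left out, the second quantification, other pseudocounts, filters, thresholds and scalings. The limit of 400 bases on transcripts was added after the data were seen.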

Additional observations from a re-analysis of the deposited data

How the results depend on the processing

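No paired analysis was possible because there is 1 group. The second quantification moved most levels. The median level of the members was 2.66 log2 units, against 2.27 in the first, and their lead over protein-coding genes 0.92, against 1.54. Their difference from other Zfp genes was -0.10, against 0.09 for levels averaged over the libraries. In the first it had no steady sign, at -0.02, -0.09 and 0.10 in replicates 1, 2 and 3 (SD 0.098). The clustered minus unclustered difference was -0.48 in the second, against -0.44, and the median retained-intron share 45.9%, against 37.6%. The median share per gene in other than protein_coding transcripts was 14.8% there, against 0.514% in the first, where the quartiles were 0 and 43.75%. In the first, this median was 43.9% for protein-coding genes and 23.3% for other Zfp genes, all at a mean of 1 TPM or more. Members led by a transcript other than protein_coding were 50 of 141 in the second, against 23 of 121. Of 42 named members, 24 moved by more than 1 SD in the second quantification, 17 up and 7 down. The 42 include the 3 members with the largest rise and the 3 with the largest fall, which were chosen for that change. Zfp618 counts as moved at 0.06 TPM because its SD in the first was 0. The count therefore describes this list only, and no share over all protein-coding genes is given. A pseudocount of 0.1 gave a median level of 1.98 and a clustered difference of -0.53. A filter at a mean of 1 TPM gave a median level of 2.97, a difference from other Zfp genes of 0.26, from protein-coding genes of -0.58 (reversed), for KRAB-type members of -0.72 and for clustered members of -0.61. Counts unscaled for length, log2(CPM + 1), gave 3.20, -0.77 for KRAB-type and -0.997 for clustered members. Against other Zfp genes they gave -0.086, opposite in sign to 0.09 but smaller than the SD of 0.098. A stricter KRAB signature gave -0.24, and clusters at 100 kb gave -0.048. At least 5 TPM in every library was reached by 61 members (35.7%), against 31% of protein-coding genes. The spread of members minus that of protein-coding genes was -0.02 log2 units, 0.030 with no count filter and 0.0080 without replicate 2, both reversed, and between -0.037 and 0.0080 with each library left out. On the TPM scale replicate 1 was highest for 44.1% of members and replicate 2 lowest for 78.0%. Leaving out each library gave clustered differences from -0.55 to -0.41 and median shares in other than protein_coding transcripts from 0 to 0.788%. With members of at least 5 TPM this share was 20.6%, and that of retained introns 34.97%. The causes were not tested. Depth limits statements on members under about 3 counts, and shared sequence those on near-identical copies.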
